A study of Mus musculus with 8 samples.

Results

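The complement and coagulation factors of the liver were followed as a set of 40 named genes, taken as every array probe whose platform gene symbol was one of those names. Of the 40 genes, 38 had at least 1 listed probe, and these 38 stood among 16593 named genes on the array. No array level of C3 or Cpb2 was analysed here. After the filter on dim probes 37 members remained among the 11022 genes tested. The member left out was Hc, which encodes complement C5. Its probe lay under background on all 8 arrays, at log2 5.69 to 5.99. A/J mice are known to carry a loss-of-function Hc allele, and whether it bears on this signal was not tested. Of the 37 tested members, 34 were above background on all 8 arrays, while the probes of Cfb, Fgb and C8a were above it on 1, 3 and 5 arrays.

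The arrays were Illumina mouse bead arrays of liver RNA from male A/J mice, an inbred strain, and the tissue was frozen non-tumour liver. Mice given CCl4 with erlotinib at 2 mg, CCl4 with erlotinib at 5 mg, or CCl4 alone had 2 arrays each, and vehicle-treated mice had 2. CCl4, a hepatotoxin that causes chronic injury and scarring, was given by gavage as 0.1 cc of a 40% solution in olive oil, 3 times a week for 18 weeks. Erlotinib blocks the EGF receptor kinase, and its dose was labelled in mg with no body weight or schedule. Livers were taken at week 19 after a washout of 1 week, although a sample label gives week 18. No group had erlotinib without CCl4, and the sources used here do not give the age of the mice. Whether both arrays of a group came from separate mice is not stated, so p-values measure only the spread between arrays, which may be technical.

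Hepatocytes make most of the plasma proteins of both cascades and secrete them as inactive precursors. In complement, recognition proteins such as the mannose-binding lectins switch on serine proteases, and the terminal components then build a pore in the target membrane. In coagulation, proteases activate each other in turn until thrombin converts fibrinogen into fibrin, with serpins and the protein C system as brakes and plasmin dissolving the clot. Several of the proteases need vitamin K for a carboxylation step in the hepatocyte. The fibrinogen genes are also known as acute phase genes, induced through IL-6 and STAT3.

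The stretches just before the start sites of 5 members are shown because these genes bracket the changes described here. Klkb1, F13b and C8b had the 3 lowest values of CCl4 against vehicle, Fgg was the member that rose, and Fga, added after its values were seen, fell with Fgg under erlotinib. Each is 250 bases on the gene's strand, from RefSeq in build GRCm38.p6, and capitals mark matches to the motifs searched. The windows were chr8:45294836-45295085 on the minus strand for Klkb1 and, on the plus strand, chr1:139501457-139501706 for F13b, chr4:104766067-104766316 for C8b, chr3:83007474-83007723 for Fgg and chr3:83025903-83026152 for Fga.
Klkb1: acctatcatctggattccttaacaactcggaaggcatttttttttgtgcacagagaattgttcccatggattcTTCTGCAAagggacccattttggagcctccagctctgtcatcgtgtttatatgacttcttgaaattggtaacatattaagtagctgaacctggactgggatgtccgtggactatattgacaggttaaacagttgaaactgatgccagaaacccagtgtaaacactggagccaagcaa
F13b: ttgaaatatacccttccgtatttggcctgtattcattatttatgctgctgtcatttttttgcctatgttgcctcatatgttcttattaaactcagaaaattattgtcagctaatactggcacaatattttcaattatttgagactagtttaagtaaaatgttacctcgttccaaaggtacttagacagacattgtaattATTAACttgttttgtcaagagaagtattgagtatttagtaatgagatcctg
C8b: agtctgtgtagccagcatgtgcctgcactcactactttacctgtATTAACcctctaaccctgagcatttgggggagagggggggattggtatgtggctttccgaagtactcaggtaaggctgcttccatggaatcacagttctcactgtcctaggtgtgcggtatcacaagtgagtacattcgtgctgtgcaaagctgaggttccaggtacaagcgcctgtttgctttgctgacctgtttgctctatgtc
Fgg: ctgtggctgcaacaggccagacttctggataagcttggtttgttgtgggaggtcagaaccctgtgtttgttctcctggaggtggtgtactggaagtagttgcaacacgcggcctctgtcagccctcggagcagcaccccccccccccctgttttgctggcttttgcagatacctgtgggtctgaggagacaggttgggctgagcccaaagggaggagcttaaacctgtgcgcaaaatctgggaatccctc
Fga: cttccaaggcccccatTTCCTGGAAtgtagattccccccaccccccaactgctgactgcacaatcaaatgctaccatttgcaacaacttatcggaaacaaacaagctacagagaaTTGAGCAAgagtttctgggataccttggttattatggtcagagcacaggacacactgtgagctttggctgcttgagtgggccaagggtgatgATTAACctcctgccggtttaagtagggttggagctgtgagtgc

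Motifs were searched on both strands as the HNF1 letters GTTAAT, the HNF4 letters CAAAGTCC, the C/EBP letters TTGCNNAA and the STAT3 letters TTCNNNGAA. The Fga window held matches to HNF1, C/EBP and STAT3 that began 43, 135 and 234 bases before the start. Klkb1 had a C/EBP match 177 bases before its start. F13b and C8b had HNF1 matches 51 and 206 bases before theirs. The Fgg window held none of these letters, and no matches overlapped. Of 32 member windows from 31 genes, 9 (28.1%) held the HNF1 letters, against 6.43% of 32851 windows of all genes. The C/EBP letters were in 8 member windows (25%, all windows 9.56%), the STAT3 letters in 6 (18.8%, all windows 7.02%) and the HNF4 letters in 0 (all windows 1.2%). The member windows include those of C3 and Hc, whose levels were not tested. These counts describe letters and not bound sites.

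Values are log2 intensities after background correction and quantile normalization, and a change is a difference of group means on that scale with its standard error. A gene was called at a limma adjusted p under 0.05 over all 11022 genes. Median raw intensities of the arrays were 99.8 to 130, and arrays of a group correlated at 0.984 to 0.988 across genes. The SD of the difference between the 2 arrays of a group was 0.185 to 0.213 on the log2 scale. Vehicle arrays carry codes starting with OO in the labels and the CCl4-treated arrays codes starting with CT, so whatever the codes mark cannot be told apart from CCl4. In whole liver, fewer cells of a type and less RNA per cell cannot be told apart. A permutation of 2 arrays against 2 cannot give a two-sided p below 0.333.

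CCl4 against vehicle asked how chronic injury changed these liver products. In CCl4 livers 16 of 37 members fell and 1 rose, while 5.93% of all tested genes fell and 6.75% rose. The falls were led by Klkb1, the precursor of plasma kallikrein, F13b, the carrier subunit of factor XIII, and C8b, a chain of complement C8. The median change of the members was -0.40, against -0.002 for all tested genes, and single members spanned -1.84 (Klkb1) to 0.44 (Fgg). Both CCl4 arrays lay below both vehicle arrays for 29 members and above for 2, where 24% and 24.6% of all genes did so. Among the 5496 genes above background on at least 2 arrays, where 12% fell, 17 of 36 members fell. Scaling arrays to one median in place of quantile normalization left 9 members called, all of them lower, where 4.36% of all genes were called. The calls of Masp1, Mbl1, F2, F5, F10, F11, Fgg and Proz ended there. The members called were 13 when CCl4 replicate 2 was left out, where 8.78% of all genes were called, against 12.7% with all arrays.

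CCl4 with erlotinib against CCl4 asked what the inhibitor did during the injury. With the 2 doses averaged, 15 members rose and 2, Fga and Fgg, fell, against 5.35% and 6.01% of all genes. The median change of the members was 0.32, all genes -0.0003, with a range of -0.66 (Fgg) to 1.28 (Klkb1). At 5 mg 16 members rose and 2 fell, where 4.41% and 4.65% of all genes did so, and the members' median was 0.44. At 2 mg 10 rose and 2 fell, where 4.18% and 4.45% of all genes did so, and the median was 0.28. The members called higher at both doses were Masp2, Mbl1, C8g, F7, F13b, Klkb1, Proc, Proz, Serpind1 and Hrg. C2, Mbl2, C8b, F2, F10 and Plg were called higher at 5 mg and not at 2 mg, but the direct test between doses called no member. These comparisons share the CCl4 arrays with the comparison of CCl4 against vehicle, so a high or low CCl4 array moves both. Leaving out CCl4 replicate 2 gave 10 called members for the averaged doses, 8 at 5 mg and 7 at 2 mg, where 5.87%, 4.76% and 4.73% of all genes were called. Without erlotinib 5 mg replicate 2 the members called at 5 mg were 11, where 5.46% of all genes were called, against 9.06% with all arrays. Median scaling left 3 members called for the averaged doses, all higher, 2 at 5 mg and 1 at 2 mg. They were F13b, Klkb1 and Serpind1 for the averaged doses, F13b and Klkb1 at 5 mg, and Klkb1 at 2 mg.

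**Figure D1:**
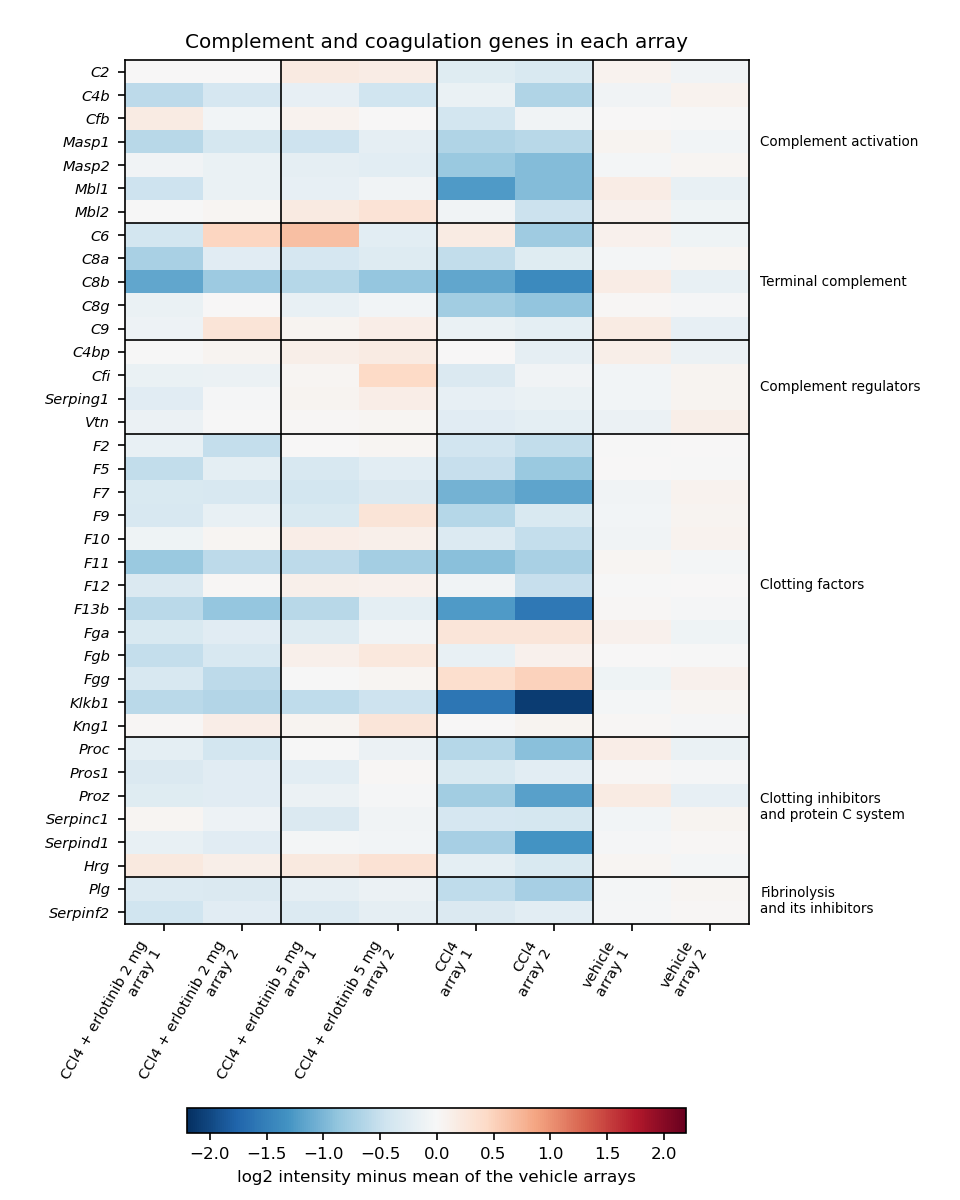
Log2 intensity of each tested member on each array minus its vehicle mean, with arrays in columns (erlotinib 2 mg, erlotinib 5 mg, CCl4, vehicle) and genes in rows by role. Klkb1 is the lowest in the CCl4 columns, with a group mean 1.84 below vehicle, and Fgg is above vehicle there by 0.44.

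**Figure D2:**
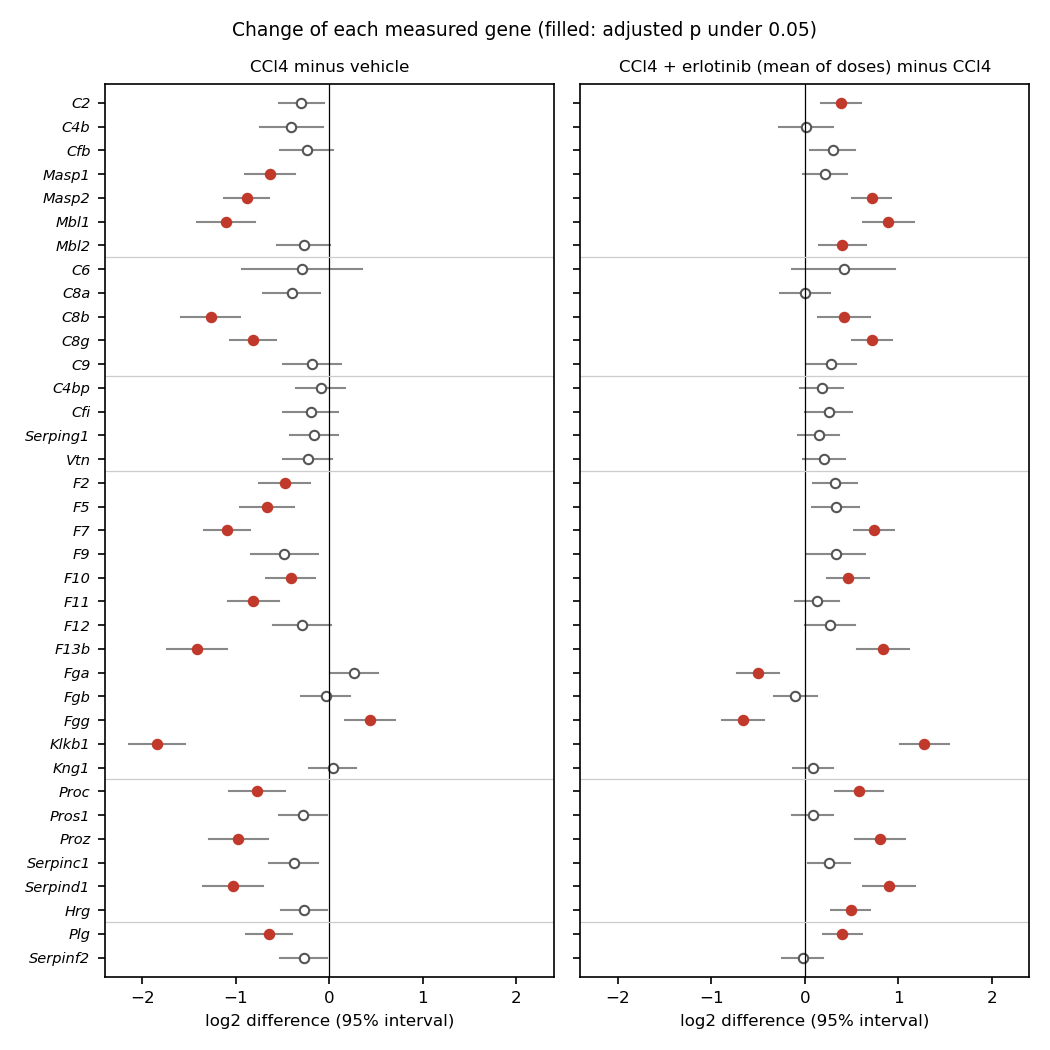
Change of each tested member on the log2 scale with its 95% interval, for CCl4 minus vehicle and for the mean of both erlotinib doses minus CCl4, with filled points for called genes. In the CCl4 panel 16 filled points lie below 0 and 1 above it, and in the erlotinib panel 15 lie above 0 and 2 below it.

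The counts by role stand beside all genes, of which 5.93% fell and 6.75% rose with CCl4. With erlotinib averaged over doses 5.35% of all genes rose and 6.01% fell. In the activation arm of complement, 3 of 7 tested members fell with CCl4 (median -0.41) and 4 rose with erlotinib averaged over doses (median 0.39). Mbl1, a mannose-binding lectin that recognises microbial sugars, stood at 9.96 and 10.28 with erlotinib 2 mg, 10.24 and 10.35 with 5 mg, 9.17 and 9.46 with CCl4, and 10.58 and 10.26 with vehicle. Both CCl4 arrays were below the other 6. Mbl1 fell by 1.11 ± 0.15 with CCl4 against vehicle (adjusted p = 5.1e-05) and rose by 0.89 ± 0.13 with erlotinib against CCl4 (adjusted p = 0.000129). Both Mbl1 calls ended with median scaling, at -1.20 (adjusted p = 0.0666) and 0.92 (adjusted p = 0.124). Masp2, the lectin-bound protease that cleaves C4 and C2, stood at 9.75 and 9.69 with erlotinib 2 mg, 9.64 and 9.60 with 5 mg, 9.02 and 8.89 with CCl4, and 9.80 and 9.88 with vehicle. For the probe used, the erlotinib arrays lay between the other groups without overlap. Masp2 fell by 0.88 ± 0.11 with CCl4 (adjusted p = 3.88e-05) and rose by 0.72 ± 0.10 with erlotinib (adjusted p = 9.38e-05). The erlotinib call of Masp2 ended with median scaling (adjusted p = 0.0722). Its 2 other probes were also called in both comparisons, at -0.46 and -0.87 for CCl4 and 0.43 and 0.67 for erlotinib. On these probes erlotinib 5 mg overlapped vehicle, reaching 7.03 and 9.82, against 6.77 to 6.91 and 9.70 to 9.90 with vehicle.

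Masp1, a further protease of the lectin pathway, stood at 7.64 and 7.86 with erlotinib 2 mg, 7.78 and 8.05 with 5 mg, 7.59 and 7.64 with CCl4, and 8.30 and 8.19 with vehicle. It fell by 0.63 ± 0.13 with CCl4 (adjusted p = 0.00231), and its erlotinib change of 0.22 ± 0.11 was not called (adjusted p = 0.291). The CCl4 call of Masp1 ended with median scaling (adjusted p = 0.338). The vehicle arrays were above the other 6 arrays. C2, the protease precursor that completes the classical convertase, stood at 10.12 and 10.12 with erlotinib 2 mg, 10.32 and 10.27 with 5 mg, 9.86 and 9.78 with CCl4, and 10.19 and 10.04 with vehicle. C2 rose by 0.39 ± 0.10 with erlotinib (adjusted p = 0.0149), while CCl4 against vehicle gave -0.30 ± 0.11 (adjusted p = 0.117). Mbl2, the second lectin, stood at 8.61 and 8.66 with erlotinib 2 mg, 8.83 and 8.92 with 5 mg, 8.54 and 8.16 with CCl4, and 8.72 and 8.54 with vehicle. It rose by 0.40 ± 0.12 with erlotinib (adjusted p = 0.0319). Without CCl4 replicate 2 the adjusted p was 0.165 for C2 and 0.534 for Mbl2, and over all alternatives it spanned 0.00324 to 0.283 for C2 and 0.00719 to 0.583 for Mbl2. The changes there were 0.35 for C2 and 0.21 for Mbl2. The Mbl2 call also ended without either array of erlotinib 2 mg (0.058 and 0.0804) or of 5 mg (0.0518 and 0.0911), with changes of 0.38 to 0.43. C4b and the dim Cfb, which provide the scaffold and the protease of the convertases, were not called in either comparison. C4b gave -0.41 for CCl4 and 0.01 for erlotinib, and Cfb -0.24 and 0.30. In RefSeq gene order Cfb and C2 are neighbours on chromosome 17.

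In the terminal pathway, C8b and C8g were the 2 of 5 tested members that fell with CCl4 (median of the 5 -0.40), and with erlotinib averaged over doses 2 rose, again C8b and C8g (median 0.41). C8g, the gamma chain of C8, stood at 11.38 and 11.53 with erlotinib 2 mg, 11.37 and 11.47 with 5 mg, 10.77 and 10.67 with CCl4, and 11.56 and 11.50 with vehicle. The CCl4 arrays were apart from the other 6, and the erlotinib and vehicle arrays overlapped. C8g fell by 0.81 ± 0.12 with CCl4 and rose by 0.72 ± 0.10 with erlotinib (adjusted p = 0.000109 for each). With median scaling its erlotinib call ended (adjusted p = 0.0752). C8b, the beta chain, whose promoter stretch is printed above, stood at 9.42 and 9.76 with erlotinib 2 mg, 9.93 and 9.70 with 5 mg, 9.42 and 9.15 with CCl4, and 10.71 and 10.40 with vehicle. It fell by 1.27 ± 0.15 with CCl4, 2.41-fold (adjusted p = 1.6e-05). With erlotinib the change was 0.42 ± 0.13 (adjusted p = 0.0491), and all erlotinib arrays were below both vehicle arrays. That erlotinib call ended in 10 of 15 alternatives, whose adjusted p spanned 0.0248 to 0.575. Leaving out CCl4 replicate 2 gave 0.473, erlotinib 2 mg replicate 2 gave 0.163 and erlotinib 5 mg replicate 1 gave 0.154.

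C8a, the alpha chain and the chromosome 4 neighbour of C8b, was dim and gave -0.40 ± 0.15 for CCl4 (adjusted p = 0.0904) and -0.00 ± 0.13 for erlotinib. C9, which forms the wall of the pore, gave -0.19 and 0.28, neither called. C6 was not called, and its arrays disagreed within groups, with 7.94 and 8.81 with erlotinib 2 mg, 9.0 and 8.11 with 5 mg, and 8.53 and 7.57 with CCl4, against 8.45 and 8.25 with vehicle. Its standard error for CCl4 against vehicle was 0.30, so a change of its size was not detectable with these arrays.

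Of the 4 complement regulators, limma called 0 with CCl4 or with erlotinib averaged over doses, and 0 had an unadjusted p under 0.05 in these. They were Cfi, the protease that inactivates C3b and C4b, its cofactor C4bp, the C1 inhibitor gene Serping1, and Vtn, which keeps terminal complexes from inserting into membranes. Their CCl4 changes spanned -0.23 to -0.09 with a median of -0.18, and their averaged erlotinib changes 0.15 to 0.25 with a median of 0.19. At 5 mg against CCl4 0 were called, but 3 of the 4 were higher at an unadjusted p under 0.05, where 8.53% of all genes were, and the median was 0.26. The 95% interval for CCl4 against vehicle was -0.42 to 0.09 for Serping1 and -0.36 to 0.17 for C4bp.

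Among the 13 clotting factors, 7 fell and 1 rose with CCl4 (median -0.48), and 4 rose and 2 fell with erlotinib averaged over doses (median 0.32). Klkb1, which activates factor XII and frees bradykinin from kininogen, stood at 8.84 and 8.78 with erlotinib 2 mg, 8.86 and 8.97 with 5 mg, 7.83 and 7.34 with CCl4, and 9.38 and 9.48 with vehicle. The erlotinib arrays lay between the other groups without overlap. Klkb1 fell by 1.84 ± 0.14 with CCl4, 3.59-fold (adjusted p = 2.24e-07), and rose by 1.28 ± 0.12 with erlotinib, 2.43-fold (adjusted p = 3.72e-06). F13b, whose partner subunit crosslinks fibrin, stood at 9.85 and 9.59 with erlotinib 2 mg, 9.83 and 10.23 with 5 mg, 9.20 and 8.87 with CCl4, and 10.47 and 10.42 with vehicle. It fell by 1.41 ± 0.15 with CCl4 (adjusted p = 5.31e-06) and rose by 0.84 ± 0.13 with erlotinib (adjusted p = 0.000278). F7, the factor that starts coagulation with tissue factor, stood at 8.83 and 8.82 with erlotinib 2 mg, 8.76 and 8.85 with 5 mg, 8.14 and 8.01 with CCl4, and 9.10 and 9.24 with vehicle. It fell by 1.10 ± 0.12 with CCl4 (adjusted p = 4.88e-06) and rose by 0.74 ± 0.10 with erlotinib (adjusted p = 8.12e-05). With median scaling the erlotinib call of F7 ended (adjusted p = 0.0939). For F13b and F7 no groups overlapped apart from the doses of erlotinib, and for Klkb1 no groups overlapped.

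F11, the intrinsic pathway protease that activates factor IX, differed in its erlotinib values from Klkb1, its neighbour on chromosome 8. F11 stood at 7.93 and 8.17 with erlotinib 2 mg, 8.18 and 8.0 with 5 mg, 7.83 and 8.04 with CCl4, and 8.79 and 8.71 with vehicle. Vehicle stood apart, and the erlotinib arrays overlapped those of CCl4. F11 fell by 0.81 ± 0.13 with CCl4 (adjusted p = 0.000272), and its erlotinib change was 0.14 ± 0.11 with a 95% interval of -0.10 to 0.37 (adjusted p = 0.617). A second bright F11 probe gave -0.83 and 0.16 in these comparisons, and another, above background on 0 arrays, gave 0.11 and -0.13. F5, the cofactor of factor X, stood at 7.69 and 8.01 with erlotinib 2 mg, 7.88 and 7.99 with 5 mg, 7.71 and 7.40 with CCl4, and 8.24 and 8.21 with vehicle. F5 fell by 0.66 ± 0.14 with CCl4 (adjusted p = 0.00284), and its erlotinib change of 0.33 ± 0.12 was not called (adjusted p = 0.0942).

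F10, the protease that makes thrombin, stood at 11.20 and 11.34 with erlotinib 2 mg, 11.44 and 11.41 with 5 mg, 10.99 and 10.76 with CCl4, and 11.22 and 11.36 with vehicle. The CCl4 arrays were below the other 6. F10 fell by 0.41 ± 0.12 with CCl4 (adjusted p = 0.0348) and rose by 0.47 ± 0.11 with erlotinib (adjusted p = 0.00664). F2, the gene of prothrombin, stood at 9.86 and 9.50 with erlotinib 2 mg, 10.02 and 10.07 with 5 mg, 9.61 and 9.48 with CCl4, and 10.01 and 10.03 with vehicle. F2 fell by 0.48 ± 0.13 with CCl4 (adjusted p = 0.0193), and its averaged erlotinib change was 0.32 ± 0.11 (adjusted p = 0.0837). These CCl4 calls ended when single arrays were left out. Without CCl4 replicate 2 the adjusted p of F2, F10 and F5 was 0.148, 0.299 and 0.0589, at changes of -0.41, -0.30 and -0.51. Without vehicle replicate 1 it was 0.0976 for F2 and 0.0724 for F10, at -0.49 and -0.48. Without vehicle replicate 2 it was 0.113 for F2 and 0.248 for F10, at -0.47 and -0.34. Over all alternatives it spanned 0.0142 to 0.148 for F2, 0.00998 to 0.299 for F10 and 0.00205 to 0.31 for F5. The erlotinib call of F10 ended without CCl4 replicate 2 (adjusted p = 0.172, alternatives 0.00348 to 0.172).

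The fibrinogen genes Fga, Fgb and Fgg encode the 3 chains of one molecule and lie side by side on chromosome 3. Fgg stood at 10.18 and 9.97 with erlotinib 2 mg, 10.52 and 10.58 with 5 mg, 10.91 and 11.04 with CCl4, and 10.44 and 10.64 with vehicle. Its CCl4 arrays were the highest and its 2 mg arrays the lowest of the 8. Fgg rose by 0.44 ± 0.12 with CCl4 (adjusted p = 0.0276) and fell by 0.66 ± 0.11 with erlotinib (adjusted p = 0.000431). The rise with CCl4 was not called without CCl4 replicate 2 (adjusted p = 0.192), without vehicle replicate 1 (0.259) or with median scaling (0.823), where its alternatives spanned 0.0138 to 0.823. Fga stood at 13.61 and 13.70 with erlotinib 2 mg, 13.66 and 13.87 with 5 mg, 14.21 and 14.21 with CCl4, and 14.04 and 13.84 with vehicle. Fga fell by 0.50 ± 0.11 with erlotinib (adjusted p = 0.00416), and a second probe gave -0.62. Quantile normalization gives arrays shared values at such high ranks, as for the CCl4 arrays of Fga, so the size of its changes is uncertain. Neither erlotinib fall was called with median scaling, at -0.35 for Fga (adjusted p = 0.446) and -0.48 for Fgg (adjusted p = 0.159). At 5 mg both calls also ended when single compared arrays were left out, with changes of -0.44 to -0.34 for Fga and -0.49 to -0.36 for Fgg. For CCl4 against vehicle Fga gave 0.27 ± 0.12 (adjusted p = 0.221). The Fgb probe was close to background and gave -0.04 for CCl4 and -0.10 for erlotinib, so it says little about the beta chain.

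Kng1, the kininogen cleaved by plasma kallikrein, stood at 13.50 and 13.61 with erlotinib 2 mg, 13.53 and 13.73 with 5 mg, 13.48 and 13.53 with CCl4, and 13.50 and 13.43 with vehicle. Its changes were 0.04 with a 95% interval of -0.21 to 0.29 for CCl4 and 0.09 with an interval of -0.13 to 0.31 for erlotinib, neither called. At such high ranks quantile normalization makes values nearly equal on all arrays, so these narrow intervals cannot show that Kng1 was unchanged. F9 and F12, further proteases of the intrinsic pathway, were not called, with -0.48 and -0.29 for CCl4 and 0.33 and 0.27 for erlotinib. F12 had a dimmer probe that passed the test for erlotinib at 0.43 (adjusted p = 0.0251), while the probe used gave an adjusted p of 0.256.

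Of the 6 inhibitors and protein C genes, 3 fell with CCl4 (median -0.58) and 4 rose with erlotinib averaged over doses (median 0.54). Serpind1, heparin cofactor II and a thrombin inhibitor, stood at 8.72 and 8.62 with erlotinib 2 mg, 8.83 and 8.81 with 5 mg, 8.14 and 7.56 with CCl4, and 8.85 and 8.91 with vehicle. It fell by 1.03 ± 0.15 with CCl4 (adjusted p = 0.00015) and rose by 0.90 ± 0.13 with erlotinib (adjusted p = 0.000168). The CCl4 arrays were below the other 6. Proz, protein Z, a cofactor in the inhibition of factor X, stood at 8.62 and 8.62 with erlotinib 2 mg, 8.76 and 8.85 with 5 mg, 8.12 and 7.69 with CCl4, and 9.06 and 8.71 with vehicle. Proz fell by 0.98 ± 0.15 with CCl4 (adjusted p = 0.000193) and rose by 0.80 ± 0.13 with erlotinib (adjusted p = 0.00036). Both Proz calls ended with median scaling (adjusted p = 0.0666 and 0.118). F7, F10 and Proz follow each other on chromosome 8.

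Proc, protein C, whose active form degrades factors V and VIII, stood at 9.76 and 9.56 with erlotinib 2 mg, 9.96 and 9.84 with 5 mg, 9.35 and 9.05 with CCl4, and 10.12 and 9.82 with vehicle. It fell by 0.77 ± 0.14 with CCl4 (adjusted p = 0.000937) and rose by 0.59 ± 0.12 with erlotinib (adjusted p = 0.00331), and a second probe gave -0.66 and 0.42. Hrg, a plasma glycoprotein that binds heparin and plasminogen, stood at 7.19 and 7.11 with erlotinib 2 mg, 7.18 and 7.29 with 5 mg, 6.76 and 6.64 with CCl4, and 7.01 and 6.93 with vehicle. For the probe used, all 4 erlotinib arrays were above both vehicle arrays. A dimmer Hrg probe, above background on 3 arrays, gave 6.21 to 6.47 with erlotinib against 6.33 and 6.44 with vehicle. With the mean of the probes the 2 mg call against CCl4 ended (adjusted p = 0.0511). Hrg rose by 0.49 ± 0.10 with erlotinib (adjusted p = 0.00288) and gave -0.27 ± 0.12 for CCl4 (adjusted p = 0.17). The erlotinib calls of Proc and Hrg ended without CCl4 replicate 2, at adjusted p 0.117 and 0.0687, where the alternatives spanned 0.00277 to 0.127 for Proc and 0.00268 to 0.133 for Hrg. Serpinc1, antithrombin, gave -0.38 ± 0.12 for CCl4 (adjusted p = 0.0559) and 0.26 for erlotinib. Pros1, the protein S cofactor of protein C, gave -0.28 and 0.08, and neither gene was called. Across the 7 vitamin K dependent members (F2, F7, F9, F10, Proc, Pros1 and Proz), 5 fell with CCl4 and 4 rose with erlotinib, with medians of -0.48 and 0.47. Of all genes, 5.93% fell with CCl4 and 5.35% rose with erlotinib averaged over doses.

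Of the fibrinolysis genes, Plg, the precursor of plasmin, stood at 11.96 and 11.94 with erlotinib 2 mg, 12.06 and 12.13 with 5 mg, 11.71 and 11.53 with CCl4, and 12.22 and 12.30 with vehicle. Plg fell by 0.64 ± 0.12 with CCl4 (adjusted p = 0.000921) and rose by 0.40 ± 0.10 with erlotinib (adjusted p = 0.0127). For the probe used, both CCl4 arrays lay below the 4 erlotinib arrays, which lay below both vehicle arrays. A second bright Plg probe gave -1.12 and 0.92, larger than the probe used, and a dimmer one gave -0.38 and 0.19. On the second bright probe an erlotinib 5 mg array, at 9.73, lay above a vehicle array at 9.53. The erlotinib call of the probe used ended without CCl4 replicate 2 (adjusted p = 0.22, alternatives 0.00297 to 0.22). Serpinf2, the inhibitor of plasmin, was not called, at -0.28 ± 0.12 for CCl4 and -0.02 ± 0.10 for erlotinib.

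**Figure D3:**
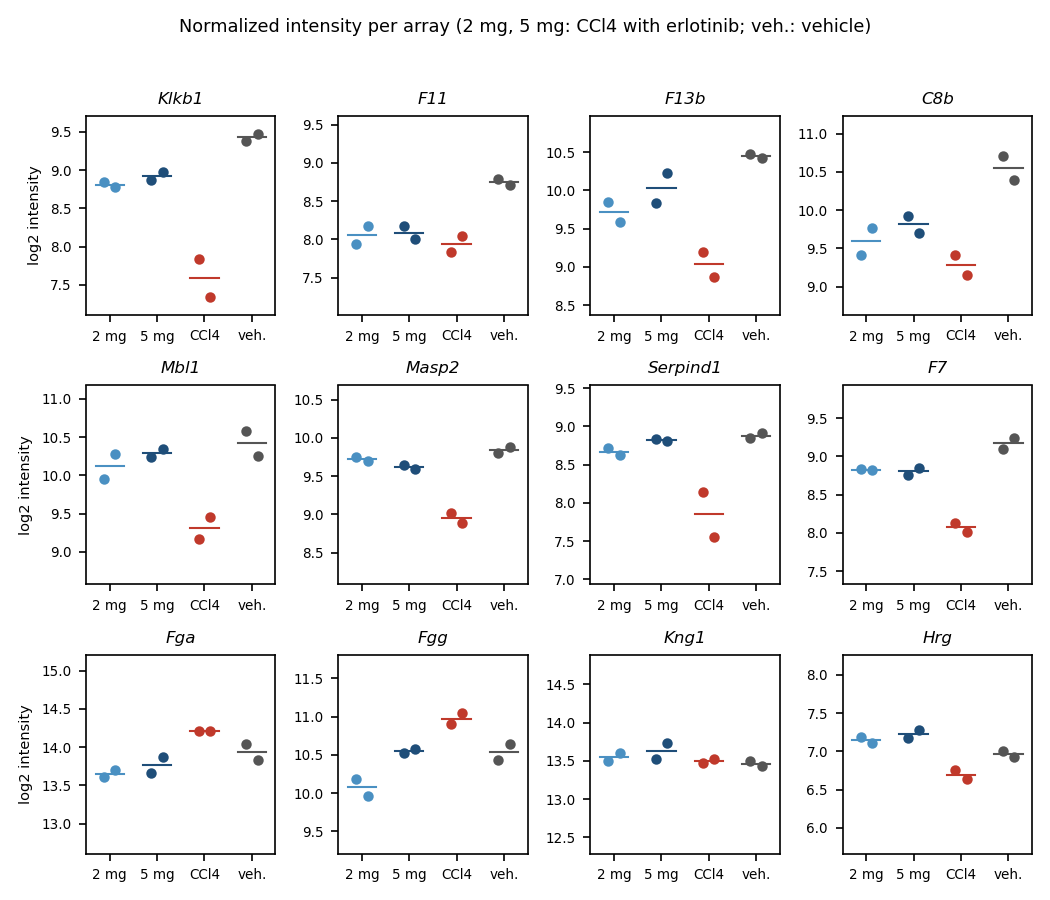
Log2 intensity on each array of 12 members by group, with a bar at each group mean, in the order erlotinib 2 mg, erlotinib 5 mg, CCl4 and vehicle. The CCl4 points of Klkb1, F13b, F7 and Masp2 are the lowest of their panels, those of Fga and Fgg the highest, and F11 has vehicle alone apart from the rest.

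Erlotinib 5 mg against 2 mg, a comparison of doses, called 0 of 37 members, where 0.0181% of all genes were called. At an unadjusted p under 0.05 were 4 members (10.8%), Cfi, F2, Fgb and Fgg, where 4.58% of all genes were. The smallest adjusted p of a member in limma was 0.15, and the median difference was 0.16, against -0.002 for all genes. The difference was above 0 for 32 of the 37 members, and for 5448 of all 11022 genes. Both 5 mg arrays lay above both 2 mg arrays for 17 members and below for 1, where 16.2% and 16.7% of all genes did so. Fgg was 0.48 higher at 5 mg (adjusted p = 0.542) and F2 was 0.37 higher (adjusted p = 0.996). The 95% intervals, which are not adjusted over genes, reached 0.241 to 0.642 to each side of the difference. Those of Fgg and F2 excluded 0 and yet neither was called, so differences between doses of such sizes could be missed.

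Against vehicle, CCl4 with erlotinib 2 mg had 0 members higher and 5 lower, where 1.71% and 1.42% of all genes were, with a median of -0.26. The 5 were C8b (-0.96, adjusted p = 0.00129), F13b (-0.73, 0.0112), F11 (-0.70, 0.00463), Klkb1 (-0.62, 0.0248) and Masp1 (-0.50, 0.0428). With erlotinib 5 mg 0 were higher and 2 lower, C8b (-0.74, adjusted p = 0.0143) and F11 (-0.66, 0.0098), where 1.17% and 0.717% of all genes were, with a median of -0.07. At an unadjusted p under 0.05 in limma, 0 members were higher and 17 lower at 2 mg, and 1 higher and 7 lower at 5 mg. Of all genes, 6.67% were higher and 6.17% lower by that measure at 2 mg, and 5.51% and 5.26% at 5 mg. Members with no call here were not shown to equal vehicle. At 2 mg the count was 1 without vehicle replicate 1, 2 without vehicle replicate 2 and 2 without erlotinib 2 mg replicate 1, where 1.22%, 1.64% and 1.28% of all genes were called, against 3.13% with all arrays. At 5 mg it was 0 without vehicle replicate 1, 1 without vehicle replicate 2 and 0 without erlotinib 5 mg replicate 2, where 0.708%, 0.871% and 1.16% of all genes were called, against 1.89% with all arrays. Median scaling left 0 in both.

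Of 54 further complement and coagulation genes 35 were tested. With CCl4 5 of them rose and 3 fell (median 0.01), where 6.75% and 5.93% of all genes did so. With erlotinib averaged over doses 3 rose and 2 fell, where 5.35% and 6.01% of all genes did so. C1qb and C1qc, chains of the C1q recognition molecule that macrophages make, rose by 1.39 ± 0.16 and 1.17 ± 0.17 with CCl4 (adjusted p = 1.55e-05 and 0.000109). C1qb stood at 8.87 and 8.34 with erlotinib 2 mg, 8.64 and 8.64 with 5 mg, 9.25 and 8.98 with CCl4, and 7.55 and 7.90 with vehicle. Its erlotinib change of -0.49 was called (adjusted p = 0.0325), but the call ended in 8 of 15 alternatives, among them without CCl4 replicate 1 (0.325), CCl4 replicate 2 (0.0532), erlotinib 2 mg replicate 2 (0.114), and erlotinib 5 mg replicate 1 (0.0726) or 2 (0.0737). Its alternatives spanned 0.00584 to 0.325. Serpina10, the serpin that works with protein Z, rose by 0.80 ± 0.13 with CCl4 (adjusted p = 0.000272) and fell by 0.77 ± 0.11 with erlotinib (adjusted p = 0.000126), opposite in sign to Proz. It stood at 10.91 and 10.92 with erlotinib 2 mg, 11.04 and 11.21 with 5 mg, 11.64 and 11.93 with CCl4, and 10.99 and 10.99 with vehicle. Both Serpina10 calls ended with median scaling (adjusted p = 0.375 and 0.234).

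Clu, the secreted chaperone clusterin, rose by 0.83 ± 0.13 with CCl4 (adjusted p = 0.000191). Hgfac, a liver serine protease related to factor XII, fell by 0.92 ± 0.13 with CCl4 (adjusted p = 0.000102), and Cd59a, which blocks the terminal pore, fell by 0.60 ± 0.12 (adjusted p = 0.00206). Ggcx, the carboxylase of the vitamin K dependent factors, fell by 0.53 ± 0.12 (adjusted p = 0.00739). Vkorc1l1, a relative of the vitamin K reductase named after its values were seen because 5 genes rose, changed by 0.42 ± 0.12 (adjusted p = 0.0227). With erlotinib against CCl4, Cd59a, Hgfac and Ggcx rose by 0.61, 0.57 and 0.44 (adjusted p = 0.000572, 0.00223 and 0.0115). With median scaling the CCl4 calls of Clu (adjusted p = 0.228) and Cd59a (0.0666) and the erlotinib call of Cd59a (0.074) ended. Without CCl4 replicate 2 the CCl4 call of Ggcx ended (0.108), as did the erlotinib calls of Ggcx (0.235) and Hgfac (0.104). Without vehicle replicate 1 the Ggcx call for CCl4 ended as well (0.0737), with alternatives of 0.0071 to 0.155. The Vkorc1l1 call ended without any of the 4 arrays compared, at 0.0655 to 0.124 and changes of 0.40 to 0.45. Over their alternatives the erlotinib values spanned 0.0113 to 0.235 for Ggcx and 0.001 to 0.104 for Hgfac, and the CCl4 values 0.00986 to 0.206 for Vkorc1l1.

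Of 14 liver transcription factors 11 were tested, and 2 fell with CCl4, where 5.93% of all genes fell. Nr1h4, the bile acid receptor FXR, fell by 0.70 ± 0.13 (adjusted p = 0.000874) and Cebpa, the hepatocyte C/EBP alpha, by 0.68 ± 0.17 (adjusted p = 0.00978). With erlotinib Nr1h4 rose by 1.01 ± 0.11 (adjusted p = 9.92e-06), Cebpa rose by 0.78 ± 0.14 (adjusted p = 0.00129) and Cebpb, the C/EBP of the acute phase, fell by 0.49 ± 0.11 (adjusted p = 0.00606). Hnf4a stood at 7.06 and 7.50 with erlotinib 2 mg, 7.38 and 7.60 with 5 mg, 6.92 and 7.16 with CCl4, and 7.22 and 7.49 with vehicle, and was not called. With median scaling both Nr1h4 calls ended (adjusted p = 0.247 for CCl4 and 0.0697 for erlotinib), as did the erlotinib call of Cebpa (0.211). The CCl4 call of Cebpa ended without CCl4 replicate 2 (0.124) or vehicle replicate 1 (0.17), with alternatives of 0.00526 to 0.402. The erlotinib call of Cebpb ended without CCl4 replicate 2 (0.0931), with alternatives of 0.00269 to 0.667.

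As a check of the liver label, 8 of 12 hepatocyte markers were tested and all 8 were above background on every array. Their summed linear level was 76055 to 78013 with erlotinib 2 mg, 77073 to 78492 with 5 mg, 75617 to 76660 with CCl4 and 75197 to 75585 with vehicle. That sum was carried by Ahsg, Apoa1, Apoa2 and Apoc3, at log2 13.48 to 14.67. Quantile normalization makes values at such high ranks nearly equal on all arrays, so the sum cannot show a change in hepatocyte content. With CCl4 2 of the 8 fell, Cps1, a urea cycle enzyme, by 0.63 and Alb, through a probe at only log2 6.62 to 7.58, by 0.70. The other 6 were not called, at -0.35 (Ttr) to 0.28 (Ahsg), among them Apoa2 at 0.03 and Apoc3 at -0.01. Without CCl4 replicate 1 or vehicle replicate 1 the Alb call ended (adjusted p = 0.0983 and 0.0503, alternatives 0.00245 to 0.31). Macrophage markers (6 of 13 tested, Itgam under background) summed to 1242 to 1629 with erlotinib 2 mg, 1281 to 1339 with 5 mg, 2024 to 2168 with CCl4 and 959 to 981 with vehicle. With CCl4 the monocyte receptor Cd14 rose by 3.17 and lysozyme Lyz2 by 1.80, Mrc1 fell by 0.56, and Clec4f (0.14) and Vsig4 (0.09) were not called. With erlotinib averaged over doses Cd14 fell by 2.81, while Lyz2 (-0.10), Mrc1 (0.03), Clec4f (0.00) and Vsig4 (-0.03) were not called. Stellate cell markers (10 of 12 tested, Col3a1 under background) summed to 1834 to 1940 with erlotinib 2 mg, 1499 to 1709 with 5 mg, 1965 to 2453 with CCl4 and 1341 to 1371 with vehicle. Of these 5 rose with CCl4, led by Acta2, smooth muscle actin, at 2.26, and with erlotinib Acta2 fell by 1.97 and Vim by 0.44. The other 8 were not called with erlotinib, at -0.36 (Col1a1) to 0.24 (Col3a1), with Dcn (0.15) and Lrat (0.04) also above 0. Both Acta2 calls ended with an intensity trend and robust prior in limma (adjusted p = 0.0537 for CCl4 and 0.0582 for erlotinib). The CCl4 call of Dcn ended with the authors' values (0.0607), median scaling (0.419) or the mean of its probes (0.253). The Vim call with erlotinib ended without CCl4 replicate 2 (adjusted p = 0.126, alternatives 0.00681 to 0.126).

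Of 2 tested erythroid markers Alas2, the haem synthesis enzyme of red cell precursors, fell by 1.53 with CCl4 (adjusted p = 0.000169) and rose by 1.03 with erlotinib (adjusted p = 0.00191). The rise ended without CCl4 replicate 2 (adjusted p = 0.1, alternatives 0.000341 to 0.205). The CCl4 call of Alas2 ended with median scaling (adjusted p = 0.0646). Hba-a1, the other erythroid marker, above background on all 8 arrays, gave -0.35 with CCl4 and -0.04 with erlotinib, neither called. Of 2 tested cholangiocyte markers Sox9 was under background on all 8 arrays, and Krt23 rose by 1.04 with CCl4 (adjusted p = 0.00493). Omitting CCl4 replicate 2 gave 0.0524 and omitting vehicle replicate 1 gave 0.117, with alternatives of 0.00262 to 0.151. S100a8 of neutrophils, above background on 4 arrays, rose by 0.83 with CCl4 (adjusted p = 0.00148). The other 2 tested neutrophil markers, Mpo (-0.09) and Elane (-0.07), were under background on all 8 arrays. The part of these other cells in the members' changes was not tested. Platelet markers, of cells that also store clotting factors, summed to 278 to 281 with erlotinib 2 mg, 283 to 296 with 5 mg, 274 to 290 with CCl4 and 266 to 282 with vehicle. Of these 4 tested genes, Itga2b, Gp1bb and Pf4 were under background on all 8 arrays.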

How the data were processed

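The intensity of each of 25697 probes on 8 Illumina arrays was taken from the non-normalized table the authors deposited. Its values are linear bead summaries with no background subtraction, judged from the values, and the software was not given in the sources used here. A second table of intensity values normalized by the authors, by a method not given in the sources used here, served as an alternative. Of the probes, 23978 had 1 gene symbol in the platform annotation and 1719 had none.

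In R 4.3.3 with limma 3.58.1, values were background-corrected (normexp, offset 50), quantile normalized and taken to log2. Probes with a mean above the 40th percentile were kept (14438 named probes), and the brightest probe stood for each gene. One model with 4 group means (4 residual and 11.9 prior degrees of freedom) was fitted with eBayes, and p was adjusted by Benjamini-Hochberg over 11022 genes per comparison. Background was the 99th percentile of 1324 odorant, vomeronasal and trace amine receptor probes on each array, since no detection p was in the files used. With 8 arrays, their number limits the precision. Alternatives were 9 changes of processing and leaving out each of the arrays in turn.

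The members and lists were chosen with earlier results of these data known. Every member is named, and from other lists up to 4 called genes a direction, by smallest p. No 2 groups share an array code in the labels, and the replicate numbers used here only count the arrays within a group.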

Additional observations from a re-analysis of the deposited data

Results flagged for a closer look

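The difference between erlotinib doses for Fgb, the beta chain of fibrinogen, stood out because the doses lay on opposite sides of CCl4. Fgb was 5.79 and 5.97 with erlotinib 2 mg and 6.44 and 6.55 with 5 mg, against 6.16 and 6.41 with CCl4 alone. Both 2 mg arrays were below both CCl4 arrays and both 5 mg arrays above them. The difference of 5 mg minus 2 mg was 0.614 on the log2 scale, and limma gave it an adjusted p of 0.15. The probe was above background on 3 of 8 arrays, and the part of that dimness in the difference was not tested.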

How the results depend on the processing

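No paired analysis was possible because the labels pair no arrays between groups. Of the calls on members, 9 of 17 for CCl4 against vehicle and 3 of 17 for erlotinib averaged over doses against CCl4 held under every alternative run, as did 1 of 12 at 2 mg and 2 of 18 at 5 mg. Against vehicle 0 of 5 at 2 mg and 0 of 2 at 5 mg did. Median scaling left 9 members called for CCl4 against vehicle, 3 for averaged erlotinib, 1 at 2 mg and 2 at 5 mg, and 0 and 0 for 2 mg and 5 mg against vehicle. The 9 were Masp2, C8b, C8g, F7, F13b, Klkb1, Proc, Serpind1 and Plg, and the 3 were F13b, Klkb1 and Serpind1. The share of all genes called with median scaling was 4.36% for CCl4 against vehicle, against 12.7% with quantile normalization, and 2.86% against 11.4% for averaged erlotinib. At 2 mg it was 1.42% against 8.64%, at 5 mg 1.53% against 9.06%, and for the doses against vehicle 0.39% against 3.13% and 0.308% against 1.89%. The cause was not tested. With the authors' normalized values the members called against vehicle were 3 at 2 mg (2.23% of all genes) and 1 at 5 mg (0.961%). With each gene's probes averaged 1 member was called against vehicle at 5 mg (1.42% of all genes). When single arrays were left out, the share of all genes called moved as well. The ranges of member counts alone therefore cannot tell a loss among members from a general loss of calls. Leaving out single arrays gave 13 to 18 members for CCl4 against vehicle, 10 to 19 for averaged erlotinib, 7 to 14 at 2 mg, 8 to 18 at 5 mg, 1 to 4 for 2 mg against vehicle, 0 to 2 for 5 mg against vehicle and 0 to 0 between doses. Without CCl4 replicate 2, 5.87%, 4.73% and 4.76% of all genes were called for averaged erlotinib, 2 mg and 5 mg. Kng2, a further kininogen gene, was not called in CCl4 against vehicle at 0.06, but the mean of its probes gave -0.44 (adjusted p = 0.018, alternatives 0.018 to 0.986). Probes near background limit what C8a, Cfb and Fgb can show.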
